A study of Mus musculus with 2 samples.

Results

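The cells described here carried transcripts of Muc6, Bcl11a, Capn13, Slc9a4, Rab7b or Cela1 in mouse biliary epithelium. They were chosen by a score, the summed UMIs (molecules counted once by a unique identifier) of these 6 genes divided by all UMIs of the cell. Members were kept cells in the top 12% of the score over both libraries with at least 3 UMIs of the 6 genes. There were 358 members among 6220 kept cells, 164 of 2713 in the library labelled Sox9cKO and 194 of 3507 in the library labelled Sox9con. The levels of the 6 genes in members are therefore a description of how the cells were picked, and so is every contrast of members with other cells.

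The data are single-cell transcript counts of biliary epithelial cells from mouse liver, made from fixed cells by split-pool barcoding (Evercode Whole Transcriptome kit), in which RNA is primed with random hexamers and oligo(dT). One library carries the genotype label Sox9cKO and the other Sox9con. Sox9 is a transcription factor of biliary and other ductal cells. The libraries are named by these labels, because the Sox9 counts given below do not settle them. The allele, any Cre driver, the strain, age and sex of the mice, and the number of animals behind a library are not given in the sources used here. Each label has 1 library, so no difference between the labels can be tested. The cells of each library were split over their own first-round barcoding wells, 5 for the Sox9cKO-labelled library (A11, A12, B1, B2 and B3) and 4 for the Sox9con-labelled library (D9 to D12). These wells give a spread over 20 pairs of wells. Whether wells of a library held different animals is not given in the sources used here, and wells and libraries cannot be told apart. The libraries shared 0 complete cell barcodes.

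Bile ducts of large calibre carry peribiliary glands, pouches of the duct wall that hold mucus-secreting cells. MUC6 is a gel-forming mucin of deep gastric, Brunner's and peribiliary glands and of pancreatic duct glands. BCL11A is a zinc-finger transcriptional repressor known from blood and neural lineages, CAPN13 a calpain, SLC9A4 a sodium-proton exchanger of gastric epithelium, RAB7B a small GTPase of late endosome and Golgi traffic, and CELA1 an elastase of the exocrine pancreas family. Biliary epithelium secretes bicarbonate and fluid through CFTR, anion exchangers and calcium-activated chloride channels.

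RefSeq promoters (build GRCm38.p6) were matched by symbol for 4 of the 6 genes, Muc6, Bcl11a, Capn13 and Cela1. The 250 bases before the start site are shown for 3 of them because these share a TATA box-like match at nearly the same distance from the start. Capitals mark a match to TATAA, the core of the TATA box, or to AGATAA, a motif of GATA factors. Both strands were searched, and no matches overlap.
Muc6 (chr7:141655394-141655643, minus strand): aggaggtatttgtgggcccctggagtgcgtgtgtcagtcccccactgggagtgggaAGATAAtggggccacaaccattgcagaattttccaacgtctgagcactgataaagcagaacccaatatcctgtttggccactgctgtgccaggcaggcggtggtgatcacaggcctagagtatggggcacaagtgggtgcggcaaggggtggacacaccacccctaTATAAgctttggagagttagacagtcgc
Capn13 (chr17:73399297-73399546, minus strand): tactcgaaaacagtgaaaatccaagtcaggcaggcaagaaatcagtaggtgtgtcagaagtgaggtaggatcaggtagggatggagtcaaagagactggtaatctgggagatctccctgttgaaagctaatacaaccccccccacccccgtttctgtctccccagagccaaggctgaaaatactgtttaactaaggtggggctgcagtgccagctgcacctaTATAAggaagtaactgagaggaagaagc
Cela1 (chr15:100687921-100688170, minus strand): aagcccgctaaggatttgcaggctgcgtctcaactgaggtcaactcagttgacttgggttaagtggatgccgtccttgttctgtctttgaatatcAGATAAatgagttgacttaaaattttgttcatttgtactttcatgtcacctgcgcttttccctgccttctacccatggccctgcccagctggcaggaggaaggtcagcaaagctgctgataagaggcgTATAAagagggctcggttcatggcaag

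TATAA began at position -28 in Muc6 and Capn13 and at -27 in Cela1, counted from the start site, and Bcl11a held none in its window of 300 bases. That motif was chosen after the sequences were read. It occurs in 24.9% of the 32851 promoters of the same length. AGATAA was found in Muc6 and Cela1 and occurs in 11.2% of promoters. SOX matches (ACAATG or ACAAAG, 28.6% of promoters) and HNF1 matches (GTTAAT, 7.10%) were searched in the 4 windows and not found. A FOXA match (TGTTTAC or TGTTTGC, 8.48%) lay after the start site of Cela1. These matches describe the letters of the windows.

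The minimum of 3 UMIs did most of the choosing. Of the 746 cells at or above the score threshold of 287 CPM (counts scaled to the cell's own UMI total), 388 had fewer than 3 UMIs of the 6 genes. The lowest member score was 299 CPM, and the highest score of a cell with at least 3 UMIs below the threshold was 278 CPM. Within 10% of the threshold lay 3 members above it and 2 cells with at least 3 UMIs below it. The cut by UMIs was less sharp, since 122 members (34.1%) had exactly 3 UMIs of the 6 genes while 240 cells had exactly 2 and 574 had 1.

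Members made up 6.04% of the Sox9cKO-labelled library (exact binomial 95% interval 5.18 to 7.01) and 5.53% of the Sox9con-labelled library (4.80 to 6.34). The intervals given here and below cover counting error only. Over wells the share ran from 4.23% in A11 to 7.44% in B2, and from 4.55% in D11 to 6.30% in D10, so the groups of wells overlap. Members were deeper than other cells, with a median of 5677 against 5011 UMIs in the Sox9cKO-labelled library and 5002 against 3135 in the Sox9con-labelled library. After every cell was thinned to 2000 UMIs, 55 of 2544 cells (2.16%, 1.63 to 2.80) and 70 of 2891 cells (2.42%, 1.89 to 3.05) still met the rule. Thinning left out 169 and 616 shallower cells. The order of the libraries was the opposite after thinning, and the counting intervals overlapped both times. It was also the opposite with the top 8% of the score (5.23% and 5.36%) and with Rab7b left out of the score (4.75% and 5.08%), and the shares were nearly equal under a stricter cell filter (5.90% and 5.91%). The median mitochondrial share of members was 6.80% and 7.15%, against 5.80% and 5.38% in other cells, and its part in the results was not tested.

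The labels were checked on Sox9 before other genes. In members Sox9 had 106 UMIs or 108 CPM in the Sox9cKO-labelled library and 79 UMIs or 78.7 CPM in the Sox9con-labelled library. The log2 ratio of CPM was 0.45 (exact conditional binomial 95% interval 0.02 to 0.89), higher in the library labelled as lacking the gene. By well, member levels were 27.7 CPM in A11, 156 in A12, 143 in B1, 94.6 in B2 and 80.6 in B3, against 115 in D9, 67.3 in D10, 24.6 in D11 and 82.3 in D12. The wells overlap fully, with the Sox9cKO-labelled well higher in 14 of 20 pairs. In the other kept cells the order was the opposite, 121 against 147 CPM and a log2 ratio of -0.29 (-0.38 to -0.19), which became 0.11 without well D9. Thinned to equal depth, a Sox9 UMI was seen in 17.1% and 10.99% of members, in 20.1% and 19.7% of other cells, and in 15.7% and 9.26% of endothelial-marked cells. Endothelial-marked cells are the 132 Sox9cKO-labelled and 161 Sox9con-labelled non-members with at least 3 UMIs of 11 endothelial genes, at median depths of 3693.5 and 2504 UMIs. These cells also carried Epcam in 44.7% and 34.8%, so they are no clean background. The share of members with Sox9 was little above theirs. EGFP, a sequence added to the gene table, had 2 UMIs in Sox9cKO-labelled members and 0 in Sox9con-labelled members. Every direction given below for the Sox9cKO-labelled library rests on its label.

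The name of the group was checked against its markers. No member held all 6 genes, 5 members held 5, and 21 held 4. With 3 genes there were 109 members, with 2 there were 162, and with 1 there were 61. Muc6 itself was seen in 11 Sox9cKO-labelled members (6.71%) and 30 Sox9con-labelled members (15.5%), which leaves 317 of the 358 members with no Muc6 UMI. The shares in other kept cells were 0.275% and 0.694%, and in endothelial-marked cells 0.758% and 0.621%. Most members were therefore chosen through genes other than the mucin, and no gland name is used for the group as a whole.

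Muc6 (ENSMUSG00000118661) had 322 CPM in Sox9cKO-labelled and 818 CPM in Sox9con-labelled members, against 0.507 and 2.24 CPM in other cells. A few cells hold these counts, since 1 cell has 152 of 317 UMIs in the Sox9cKO-labelled library and another 305 of 822 in the Sox9con-labelled library. Bcl11a (ENSMUSG00000000861) had 196 and 199 CPM in members and was seen in 82 of 164 and 85 of 194 of them, against 3.45% and 2.02% of other cells. Capn13 (ENSMUSG00000043705) had 227 and 239 CPM and Slc9a4 (ENSMUSG00000026065) had 246 and 293 CPM. Thinned to 2000 UMIs, Slc9a4 was seen in 30.5% and 40.8% of members and in 0.980% and 1.85% of endothelial-marked cells. Rab7b (ENSMUSG00000052688) had 148 and 80.6 CPM. Its wells did not overlap, at 112 to 194 CPM in the Sox9cKO-labelled and 61.4 to 103 CPM in the Sox9con-labelled wells. The log2 ratio of the libraries in members was 0.87 (0.48 to 1.29), and in other cells, at 12.2 and 5.08 CPM, the same direction held with 1.25. Rab7b is a score gene, so its levels in members and in other cells both depend on the rule.

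Cela1 (ENSMUSG00000023031) had 70.03 and 112 CPM, but 29 of its 69 UMIs in Sox9cKO-labelled members came from 1 cell. That cell carried 322 UMIs of 14 pancreatic exocrine enzymes among 7473 UMIs in all (4.31%), with 0 Muc6 UMIs and no UMI of the 5 other score genes. The next highest cell in the Sox9cKO-labelled library held 16 such UMIs. Without it Cela1 was at 40.9 CPM in Sox9cKO-labelled members, and the other members of that library had 8 enzyme UMIs in all. The trypsinogens Prss2, Try4 and Try5 are near-identical copies, so their split is uncertain. The remaining members thus showed few UMIs of the fixed list of 20 pancreatic enzyme genes. All 194 Sox9con-labelled members had 27 UMIs, of which 22 were Ctrb1. That was 26.9 CPM, against 13.1 CPM in other Sox9con-labelled cells. At least 3 such UMIs were seen in 1.55% of Sox9con-labelled members and 0.211% of other cells.

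Pairs of the 6 genes were seen together in members to different extents. Of the 173 members with Capn13, 104 (60.1%) also had Slc9a4, and of the 142 with Rab7b, 75 (52.8%) had Slc9a4. Of the 41 members with Muc6, 24 (58.5%) also had Bcl11a, but 7 (17.1%) had Capn13 and 11 (26.8%) had Slc9a4. Of the 167 members with Bcl11a, 69 (41.3%) had Slc9a4, 64 (38.3%) Rab7b, 61 (36.5%) Capn13 and 24 (14.4%) Muc6. Slc9a4 was the gene seen in most members (196), and Muc6 in the fewest (41). Since a cell needs 3 UMIs in all, a cell rich in 1 gene can be a member without the others, and these shares depend on the rule and are a description.

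**Figure D1:**
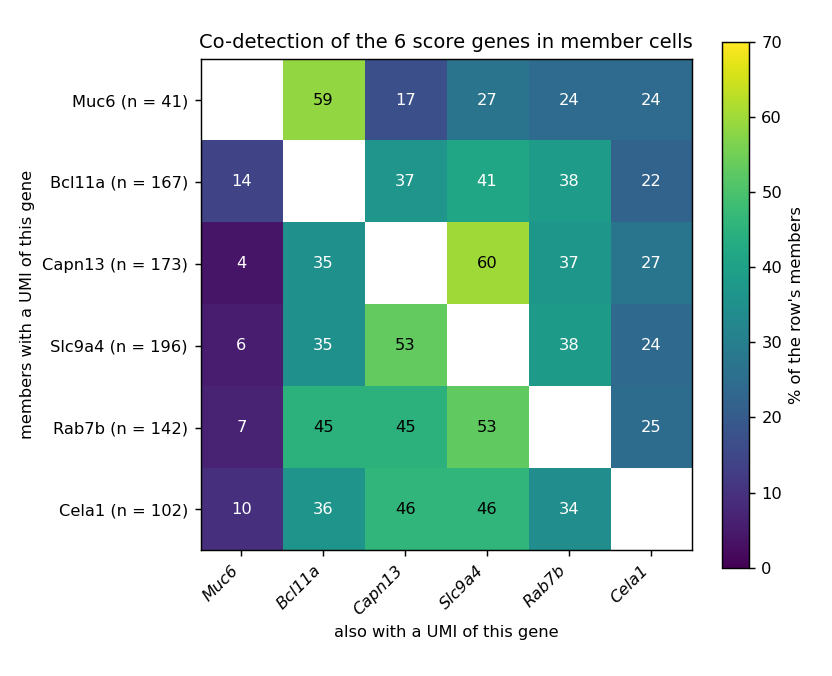
Share of member cells with a UMI of the row gene that also have a UMI of the column gene, in percent, with the number of members per row gene. Capn13 and Slc9a4 meet in 60% of Capn13 members, while Muc6 members most often carry Bcl11a (59%) and seldom Capn13 (17%).

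Each of the 6 genes was also left out of the score in turn and its level read in the cells chosen by the other 5. Slc9a4 was then at 146 CPM in chosen cells against 17.6 CPM in the rest of the Sox9cKO-labelled library, a log2 ratio of 3.05 (2.71 to 3.39), and at 204 against 22.0 CPM in the Sox9con-labelled library, 3.21 (2.92 to 3.51). Capn13 had ratios of 3.33 and 2.85, Bcl11a 2.21 and 3.14, and Rab7b 2.499 and 2.88. Muc6 had 2.71 and 4.14, resting on 5 and 10 cells. Cela1 was the weakest, with 0.94 (0.10 to 1.70) in the Sox9cKO-labelled library and 2.18 (1.76 to 2.60) in the Sox9con-labelled library. All 6 genes were thus higher in cells chosen without them in both libraries, Cela1 by the smallest margin. The 6 genes were chosen with earlier results of these data known, so these ratios describe the set and are no independent check of it.

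Cells were clustered without the 6 genes and Sox9, which gave 13 clusters. Cluster 3, with 754 cells of which 47.9% were Sox9cKO-labelled, held 264 members or 73.7% of all, and 35.0% of its cells were members. It took 70.7% of the Sox9cKO-labelled and 76.3% of the Sox9con-labelled members, against 9.61% and 7.40% of other cells. Cluster 6 held a further 55 members (15.4%). Cluster 7 held 6.71% of Sox9cKO-labelled but 0.515% of Sox9con-labelled members, with the same order in other cells (8.94% and 1.99%). Of a member's 15 nearest neighbours, 37.7% and 41.9% on average were members, against 4.15% and 3.21% for other cells. Members thus lie largely in cluster 3 on genes the score did not use, and most cells of that cluster did not pass the rule. Since 35.0% of cluster 3 cells were members, the neighbour shares do not show that members group together within it.

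Other genes set the members apart in the same way in both libraries. Among 9503 genes with at least 200 UMIs over all kept cells and 50 in each library, 150 (1.58%) were at least 2-fold higher in members in both libraries and 626 (6.59%) at least 2-fold lower, 8.17% in either direction. The median over all these genes was -0.14 and -0.16, and it moved to about 0 with TMM or DESeq2 factors, which gave 201 higher and 503 lower or 209 and 499. All ratios below keep the scaling by total UMIs. The count of lower genes was 396 with the gene minimum doubled.

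Dmbt1 dominated by level. It encodes a secreted scavenger receptor protein of mucosal surfaces that binds bacteria and mucins. Members had 10488 UMIs in the Sox9cKO-labelled and 11931 in the Sox9con-labelled library, or 10645 and 11879 CPM, against 1768 and 2243 CPM in other cells. The log2 ratios were 2.59 (2.56 to 2.62) and 2.41 (2.37 to 2.44). A Dmbt1 UMI was seen in 96.3% and 98.97% of members, against 51.2% and 48.2% of other cells and 34.8% and 29.2% of endothelial-marked cells. At 2000 UMIs per cell the shares were 95.7% and 98.95% of members, 40.3% and 43.5% of other cells, and 27.5% and 25.9% of endothelial-marked cells. Member levels by well ran from 6354 CPM in A11 to 13756 in B2, and from 9366 in D10 to 16789 in D9, all above the highest level of other cells in any well, 2542 CPM. Dmbt1 thus marks nearly every member, with or without Muc6.

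The 20 genes with the highest ratios in the weaker library were Ptprt, Igfbp5, Olfm4, Areg, Lsamp, Kctd14, Ctse, Dmbt1, Adgrg7, Trim15, Slc26a9, Fstl4, Adam8, Duoxa2, Tspan2, Ly6m, Duox2, Muc3, Sord and Slc26a3. All were higher in members in 9 of 9 wells, except Adam8, Ly6m and Muc3 in 8. Duox2, a dual oxidase that makes hydrogen peroxide, had 412 and 229 CPM in members against 102 and 32.3 CPM in other cells (log2 ratios 2.01 and 2.82). Its maturation factor Duoxa2 had 89.3 and 44.8 CPM against 21.0 and 9.22 CPM (2.08 and 2.27). Ctse, the aspartic protease cathepsin E of gastric-type epithelium, had 165 and 63.7 CPM against 30.5 and 9.82 CPM (2.44 and 2.69).

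Secreted regulators were also among the 20. Igfbp5, which binds insulin-like growth factors, had 250.7 CPM in Sox9cKO-labelled and 250.9 CPM in Sox9con-labelled members, against 39.8 and 36.6 CPM in other cells. Wells ran from 98.7 to 381 CPM in the Sox9cKO-labelled and from 191 to 333 CPM in the Sox9con-labelled library. Areg, the EGF receptor ligand amphiregulin, had 108 and 94.6 CPM against 13.8 and 16.7 CPM. Fstl4, a follistatin-like protein, had 382 and 586 CPM against 74.7 and 129 CPM. Olfm4, a secreted glycoprotein of intestinal crypt bases, had 127 and 226 CPM against 21.2 and 25.8 CPM (2.58 and 3.13). These levels held in each library separately, and the well ranges of members lie above those of other cells.

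Membrane proteins made up much of the rest. Adgrg7, an adhesion G protein-coupled receptor, had 284 and 468 CPM in members against 44.2 and 92.6 CPM. Ptprt, a receptor tyrosine phosphatase, had 98.4 and 94.6 CPM against 15.1 and 6.80 CPM. Well A11 was high for Ptprt, at 304 CPM against 27.2 to 98.7 CPM in the other Sox9cKO-labelled wells. For Muc3, a membrane mucin whose reads can be shared with its close relative Muc3a, well A12 was high at 292 CPM, and without it the Sox9cKO-labelled log2 ratio went from 3.01 to 1.91. Ly6m, of the Ly6 family of surface proteins, likewise had 338 CPM in A12 against 27.7 to 143 CPM in the other 4 wells, and its ratio without A12 was 2.09 in place of 3.01.

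**Figure D2:**
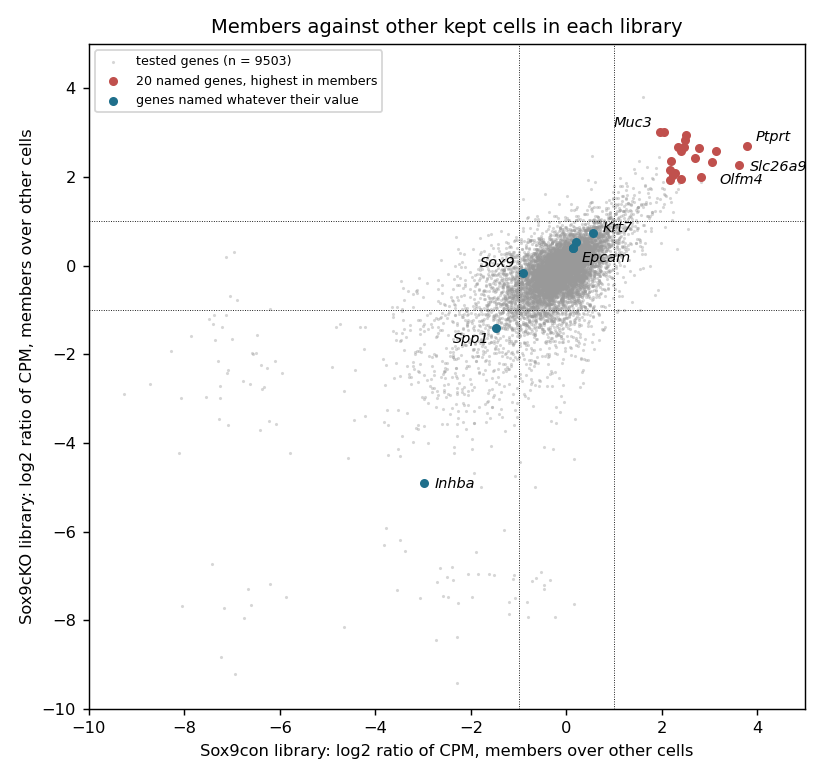
Log2 ratio of CPM, members over other kept cells, in the Sox9con-labelled library (x axis) and the Sox9cKO-labelled library (y axis) for 9503 genes (grey), the 20 highest (red) and genes named whatever their value (blue); dotted lines mark 2-fold. The 20 genes lie near or above 2 on both axes, Spp1 and Inhba below -1 on both.

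How much of this belonged to cluster 3 as a whole was read by splitting the other cells. Non-member cells of cluster 3 had higher levels than non-members elsewhere for 20 of these 20 genes in both libraries, with median log2 ratios of 1.59 and 2.22. The 116 and 148 members that lay in cluster 3 were higher again than its non-members for 19 and 18 of the 20, with medians of 0.91 and 0.62. Dmbt1 had 1356 and 1620 CPM in non-members elsewhere, 6672 and 8917 CPM in cluster 3 non-members and 11304 and 11004 CPM in cluster 3 members. Olfm4 had 20.5 and 20.6, then 29.9 and 80.7, then 88.1 and 241 CPM. Ano1, the calcium-activated chloride channel gene, had 1725 and 1259 CPM in cluster 3 members and 1491 and 1475 CPM in its non-members, against 444 and 431 CPM elsewhere. The clustering could use all these genes, so their levels in the cluster describe it.

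Levels were also read along the score. Cells with no UMI of the 6 genes had 1139 and 1346 CPM of Dmbt1, cells with 1 or 2 UMIs 4707 and 7239 CPM, the lower-scoring members 9908 and 11414 CPM and the upper-scoring ones 11866 and 12362 CPM. Igfbp5 went from 23.2 and 22.6 CPM through 120.5 and 115 CPM and 220 and 205 CPM to 302 and 298 CPM. Agr2, a disulfide isomerase of mucus-secreting cells, had 8.14 and 21.5 CPM in the lower-scoring members and 27.0 and 130 CPM in the upper-scoring ones. Alb ran the other way, from 691 and 431 to 18.9 and 6.08 CPM, as did Sox9 in the Sox9con-labelled library, from 154 to 60.8 CPM. Spp1 had 2313 and 4566 CPM in cells with no such UMI, 807 and 1283 CPM in the lower-scoring and 790.4 and 1750.0 CPM in the upper-scoring members. Other genes did not rise with each step. In the Sox9cKO-labelled library Fstl4 went from 421 CPM in the lower-scoring to 316 CPM in the upper-scoring members, Olfm4 from 138 to 108 CPM, Duox2 from 452 to 345 CPM and Muc4 from 451 to 375 CPM. In the Sox9con-labelled library Muc4 went from 325 to 292 CPM and Muc3 from 301 to 276 CPM, while Fstl4 went from 421 to 758 CPM and Olfm4 from 131 to 324 CPM. These genes were higher in cells with 1 or 2 UMIs than in cells with none in both libraries.

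**Figure D3:**
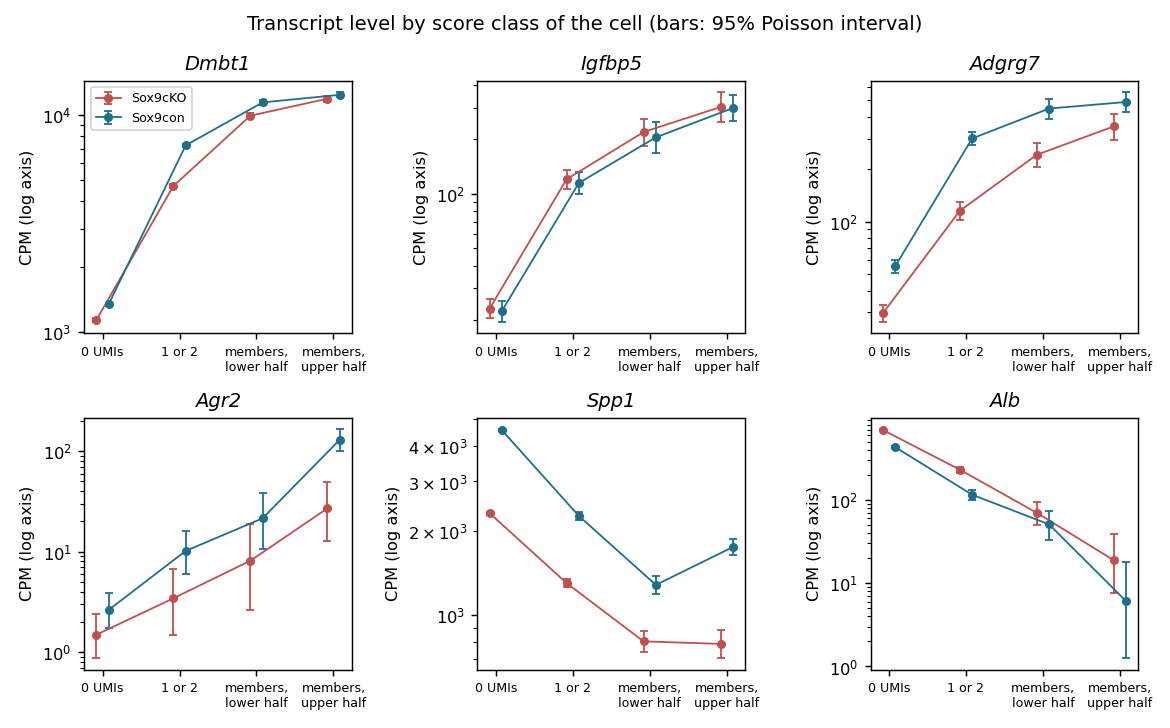
CPM (log axis) of 6 genes in cells with no UMI of the 6 score genes, with 1 or 2, and in the lower- and upper-scoring members, per library with 95% Poisson intervals. Dmbt1, Igfbp5, Adgrg7 and Agr2 are higher and Alb lower with each step, and Spp1 is lower in members than in cells with no such UMI.

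The duct genes Krt7, Krt19 and Epcam had higher values in members than in other cells of both libraries, by less than 2-fold. Of 13 tested genes of the biliary identity list, 0 were at least 2-fold higher and 2 at least 2-fold lower in both libraries, Spp1 and Onecut1, against 1.58% and 6.59% of all tested genes. The list median was 0.32 and 0.10. Krt7, a duct keratin, had 330 and 400 CPM in members against 199 and 272 CPM in other cells (0.73 and 0.56). Krt19 had 1183 and 1729 CPM against 892 and 1564 CPM, and the adhesion protein gene Epcam 1049 and 1199 CPM against 792 and 1090 CPM. Spp1, which encodes the secreted phosphoprotein osteopontin, had 801 and 1512 CPM against 2138 and 4215 CPM, log2 ratios of -1.42 (-1.52 to -1.31) and -1.48 (-1.55 to -1.41). It was lower in members in 9 of 9 wells. The Krt19 ratio of the Sox9con-labelled library was -0.0004 in thinned cells. Within cluster 3 the order of the keratins was the opposite, with Krt19 at 1213 and 1677 CPM in members against 1456 and 2196 CPM in non-members, and Krt7 at 345 and 415 against 424 and 580 CPM. Spp1 had 763 and 1581 CPM in cluster 3 members and 848 and 1408 CPM in its non-members. The lower Spp1 level was thus shared by the cells of cluster 3 that did not pass the rule.

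Transcription factors of the pancreatobiliary lineage included several that were lower in members. Of 19 tested, 5 were at least 2-fold lower in both libraries and 0 higher, against 6.59% and 1.58% of all tested genes. These were Onecut1 (-1.03 and -1.06), Foxa1 (-1.27 and -2.06), Gata4 (-1.77 and -2.99), Prox1 (-1.48 and -2.34) and Nr5a2 (-2.15 and -1.61). Foxa1 is a pioneer factor of endoderm, and Prox1 and Nr5a2 are factors of hepatic and pancreatic cells. Nr5a2 had 41 UMIs in Sox9cKO-labelled and 59 in Sox9con-labelled members. Klf5, a factor of gut epithelia, had log2 ratios of 0.73 and 0.83, and Onecut2 0.46 and 0.30. Pdx1, the factor of pancreas and duodenum also known from peribiliary glands, had 1.15 and 0.83, with 35 and 34 member UMIs. Sox17, another factor known from peribiliary glands, was below the gene minimum, with 4 and 11 UMIs in members against 17 and 32 in all other cells.

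The fixed list of gland mucous secretion was only in part present. Of 10 genes, 4 reached the gene minimum and Dmbt1 was the 1 at least 2-fold higher in both libraries, against 1.58% of all tested genes. Aqp5, a water channel of secretory glands, had 0.92 and 1.02. The trefoil factor gene Tff2, of gastric mucous neck cells, had 44.7 and 97.6 CPM in members against 78.0 and 87.3 CPM in other cells (-0.80 and 0.16). Below the minimum, Agr2 had 15 and 75 UMIs in members against 26 and 44 in all other cells, and Pgc, the gastric pepsinogen C gene, 21 and 53 against 32 and 78. A4gnt, whose enzyme adds the terminal sugar of gland-type mucin, had 0 UMIs in all kept cells. The summed level of the list was 10788 and 12165 CPM in members against 1909 and 2389 CPM, nearly all of it Dmbt1.

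Among mucins and trefoil factors, 7 of 14 genes were tested and 2 were at least 2-fold higher in both libraries, Muc3 (3.01 and 1.96) and the membrane mucin gene Muc4 (1.88 and 2.02), against 1.58% of all tested genes. Within cluster 3, Muc4 was at 258 and 147 CPM in members and at 108 and 143 CPM in non-members, so about level in the Sox9con-labelled library. Muc3 there was at 116 and 176 CPM in members and at 17.7 and 143 CPM in non-members. Muc1 had 0.39 and 0.48 and Muc13 0.40 and 0.18. The gel-forming Muc5ac and Muc5b had 1 and 0 UMIs over all members, and Muc2 had 19. Of 14 tested genes of mucin glycosylation and secretion, 2 were higher, the glycosyltransferase genes Galnt6 (2.35 and 1.52) and Gcnt3 (2.46 and 1.93), beside the same 1.58%. The Galnt6 ratio of the Sox9con-labelled library rests on 27 UMIs and turned to -5.92 in thinned cells. Ern2, an endoplasmic reticulum stress sensor of mucus cells, was below the minimum but had 11 and 17 UMIs in members against 6 and 8 in all other cells. Xbp1, a factor of secretory cells, did not stand apart (0.10 and -0.17).

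Several genes of ion transport were higher in members. Of 20 tested genes, 4 were at least 2-fold higher in both libraries and 0 lower, against 1.58% and 6.59% of all tested genes, with medians of 0.49 and 0.37. They were the sodium-proton exchanger gene Slc9a2 (1.52 and 2.17), the chloride-bicarbonate exchanger gene Slc26a3 (1.93 and 2.18), the chloride transporter gene Slc26a9 (2.26 and 3.62) and Ano1 (1.49 and 1.24). Ano1 had 1457 and 1236 member UMIs. Within cluster 3, Slc26a3 was about level, at 49.4 and 50.9 CPM in members and 49.5 and 51.5 CPM in non-members. Ano1 there was higher in Sox9cKO-labelled members and lower in Sox9con-labelled members than in non-members, as given above. Slc26a9 was higher in cluster 3 members, at 38.6 and 53.6 CPM against 10.3 and 18.2 CPM. The cotransporter gene Slc12a2, which loads cells with chloride, had 0.76 and 0.82. Cftr had 303 and 370 CPM in members against 211 and 321 CPM, ratios of 0.53 and 0.21. Without the members with at least 3 Muc6 UMIs the Sox9con-labelled ratio was -0.039. The water channel gene Aqp1 had 1 UMI in Sox9cKO-labelled and 37 in Sox9con-labelled members. The anion exchanger gene Slc4a2 had 0.58 and 0.32.

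No tested relative of Bcl11a, Capn13 or Rab7b was at least 2-fold apart in the same direction in both libraries, against 8.17% of all tested genes. Nothing is read from a count of 0 among so few genes. Of 14 tested relatives and corepressors of BCL11A, 0 were 2-fold apart in either direction, with medians of -0.20 and -0.25, and Bcl11b had 3 UMIs in the members of each library. Of 8 tested genes of calpains and calpastatin 0 were apart. Capn2 had 0.76 and 0.61, and Capn10 had 0.87 and 0.61 with 13 member UMIs in each library. Capn8, a calpain of gastric surface mucous cells, was below the minimum with 15 and 6 member UMIs against 46 and 22. Of 14 tested genes of RAB7 and endolysosomal traffic 0 were apart, and Rab7 itself had 0.11 and -0.05. Of 6 tested gland base and WNT response genes, Olfm4 was the 1 higher, against 1.58% of all tested genes, Rnf43 had 0.97 and 1.38, and Lgr5 had 3 UMIs in the members of each library.

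Markers of other cell types summed to lower levels in members, though not every marker was lower in both libraries. Of 10 tested endothelial genes 7 were at least 2-fold lower in both libraries, against 6.59% of all tested genes. The 11 genes of the list summed to 94.4 and 117 CPM in members against 282 and 458 CPM in other cells. Emcn was at 0 in members, and Cdh5 had 1 and 2 UMIs. With cells rich in endothelial, mesenchymal or immune UMIs removed, Kdr, Tek, Ptprb and Egfl7 turned in 1 or both libraries, on few counts. Hepatocyte genes summed to 145 and 166 CPM against 717 and 586 CPM. Alb, at -3.59 and -3.73, was the 1 of 4 tested hepatocyte genes at least 2-fold lower in both libraries, against 6.59% of all tested genes. The median of the 4 was -0.16 and -0.81. Plasma protein genes summed to 55.8 and 1.99 CPM against 704 and 29.1 CPM. Tuft cell genes summed to 45.7 and 68.7 CPM against 221 and 104 CPM. Of 4 tested, 2 were at least 2-fold lower in both libraries, against 6.59% of all tested genes. At least 3 tuft UMIs were seen in 1.83% and 3.61% of members against 4.08% and 1.57% of other cells. By that share the Sox9con-labelled library went the other way. Proliferation genes summed to 44.7 and 52.8 CPM against 87.2 and 126 CPM. Immune genes summed to 14.2 and 16.9 CPM against 43.7 and 32.6 CPM, with Ptprc, Cd3e, Cd79a, Adgre1, Lyz2 and Cd52 at 0 in members. Mesenchymal and endocrine genes summed to at most 6.09 CPM in members. Of the 16 genes of the tissue dissociation response 5 were at least 2-fold lower in both libraries, against 6.59% of all tested genes. They were Fos, Egr1, Ier3, Hspa1a and Hspa1b. Fewer cells with such transcripts, less of them per cell and less free RNA cannot be told apart here.

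Genes that mark other biliary cells of the series were read in members as well. Ltf, Muc4 and Anxa10 summed to 463 and 326 CPM in members against 148 and 91.0 CPM in other cells, and Muc4 made up 416 of the Sox9cKO-labelled and 310 of the Sox9con-labelled member UMIs. Ltf, the secreted iron-binding lactoferrin, had 35 and 5 UMIs. Car4, Msln and Tff2 did not differ by 2-fold in either library. Ptgs2, Csf3 and Slc34a2 were at least 2-fold lower in both libraries, as were Dnah12, Mmp25 and Scin, against 6.59% of all tested genes. Inhba, a subunit of activin, had 11 and 10 UMIs in members against 4624 and 917 in other cells (-4.90 and -2.98).

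The 10 lowest genes had 0 UMIs in the members of both libraries, which allows up to 3.04 and 2.99 CPM. They were Selp, Ahsg, Tspan18, Mctp1, Lrmp, Egr2, Vegfc, Rgs13, Foxj1 and Bmx. No member with a UMI among 164 and 194 allows a share of up to 1.83% and 1.55% of members. Ahsg, the plasma protein fetuin-A, was counted in 4.86% and 2.69% of other cells and Foxj1, the factor of motile cilia, in 4.04% and 1.78%, above that limit in both libraries. Mctp1 was counted in 1.49% and 0.724% of other cells and Selp, the endothelial adhesion receptor P-selectin, in 0.942% and 0.573%. Lrmp (1.41% and 1.33%), Rgs13 (0.785% and 0.543%) and Bmx (1.06% and 0.483%) also lay below that limit in both libraries. For Mctp1, Selp, Lrmp, Rgs13 and Bmx a difference in the share of cells was not detectable with this number of members.

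Members with the mucin itself stood apart from the others, in a split chosen after the data were seen. At least 3 Muc6 UMIs were found in 30 members, 6 in the Sox9cKO-labelled library with 4, 9, 37, 48, 60 and 152 UMIs, and 24 in the Sox9con-labelled library with 3 to 305 UMIs and a median of 18. Of these 30 cells, 28 lay in cluster 3. They were set beside the 317 members with no Muc6 UMI, over both libraries together. The 317 were 153 Sox9cKO-labelled and 164 Sox9con-labelled cells, so pooled ratios also carry differences between the libraries. Values per library are given beside some of them. Among 3507 genes compared, 106 were at least 2-fold higher and 345 at least 2-fold lower in the 30 cells. These cells hold 167316 UMIs in all and the 317 hold 1765344, so the 30 cells give far fewer counts per gene. The part of counting error in the 106 and 345 was not tested.

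Agr2 had 377 CPM in Muc6 members and 14.2 CPM in members without Muc6. These levels rest on 63 and 25 UMIs, and their log2 ratio was 4.68 (4.04 to 5.46). It was seen in 19 of the 30 cells and in 17 of the 317. By library the UMIs were 4 against 10 in Sox9cKO-labelled and 59 against 15 in Sox9con-labelled members. Pgc had 126 against 28.9 CPM (2.10), by library 85.0 against 16.5 and 141 against 42.1 CPM. Aqp5 had 47.8 against 13.6 CPM (1.78) on 8 and 24 UMIs. Gkn3, a gastrokine of stomach glands, had 11 UMIs in 3 Muc6 cells, 10 of them Sox9cKO-labelled, and 0 in members without Muc6. The other genes of the fixed gland mucous list did not share 1 direction. Dmbt1 had 9246 against 11430 CPM (-0.31), Creb3l1 35.9 against 35.1 CPM (0.03), Lyz1 0 against 6 UMIs and Cxcl17 2 against 0 UMIs. Tff2 had 155 against 64.6 CPM (1.26), with 1 UMI in the Sox9cKO-labelled Muc6 cells and 25 in the Sox9con-labelled ones. Outside that list, Olfm4 had 514 against 139 CPM (1.89), by library 298 against 113 and 599 against 166 CPM. Cftr had 640 against 314 CPM (1.02), but 234 against 313 CPM in the Sox9cKO-labelled and 798 against 316 CPM in the Sox9con-labelled library, so its direction differed between them. These genes were picked after the split was seen.

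Receptors and signal regulators followed. Ptprt had 514 against 56.6 CPM (3.17), by library 850 against 61.5 and 382 against 51.5 CPM. Rgs5 and Rgs7, regulators of G protein signalling, had 317 against 28.3 CPM (3.46) and 932 against 223 CPM (2.06). By library Rgs5 had 213 against 37.3 and 358 against 18.7 CPM, and Rgs7 765 against 199.8 and 998 against 248 CPM. Nr4a1, an immediate-early nuclear receptor, had 908 against 126 CPM (2.85), but 146 of its 152 UMIs were Sox9con-labelled, and the Sox9cKO-labelled levels were 127.5 against 127.4 CPM. Apoe, a lipid carrier, had 442 against 70.8 CPM (2.63) and was higher still in other kept cells, at 816 CPM. By library it had 255 against 63.7 and 516 against 78.4 CPM. Spp1 had 2534 against 1013 CPM (1.32), by library 1785 against 749 and 2827 against 1295 CPM, and 3086 CPM in other cells.

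Other genes were nearly absent from the Muc6 cells. The membrane mucin genes Muc3 and Muc4 had 2 and 6 UMIs there, or 11.95 and 35.9 CPM, against 228 and 406 CPM in members without Muc6 (-4.19 and -3.48). Ly6m had 0 UMIs against 264. Of the 30 Muc6 cells 28 lay in cluster 3, and many member UMIs of these genes came from outside it. Cluster 3 members held 167 of 416 and 107 of 310 member UMIs of Muc4. For Muc3 they held 75 of 129 and 128 of 290, and for Ly6m 52 of 159 and 35 of 106. The part of cluster membership in these contrasts was not tested. Sox9 had 4 UMIs in 4 of the 30 cells, 23.9 CPM against 101 CPM, a log2 ratio of -2.06 (-3.98 to -0.70), with 2 of the 4 UMIs in each library. Of the other score genes, Bcl11a had 353 against 183 CPM (0.94), with 191 against 193 CPM in the Sox9cKO-labelled and 416 against 172 CPM in the Sox9con-labelled library, while Capn13 (47.8 against 256 CPM, -2.41), Slc9a4 (108 against 288 CPM, -1.42) and Rab7b (35.9 against 120 CPM, -1.73) were lower. Capn13, Slc9a4 and Rab7b had 0, 1 and 4 UMIs in the Sox9cKO-labelled Muc6 cells and 8, 17 and 2 in the Sox9con-labelled ones. A cell with Muc6 meets the rule without other score genes, so these last values depend on the rule. Both groups had more Dmbt1 than the 1985 CPM of other cells.

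**Figure D4:**
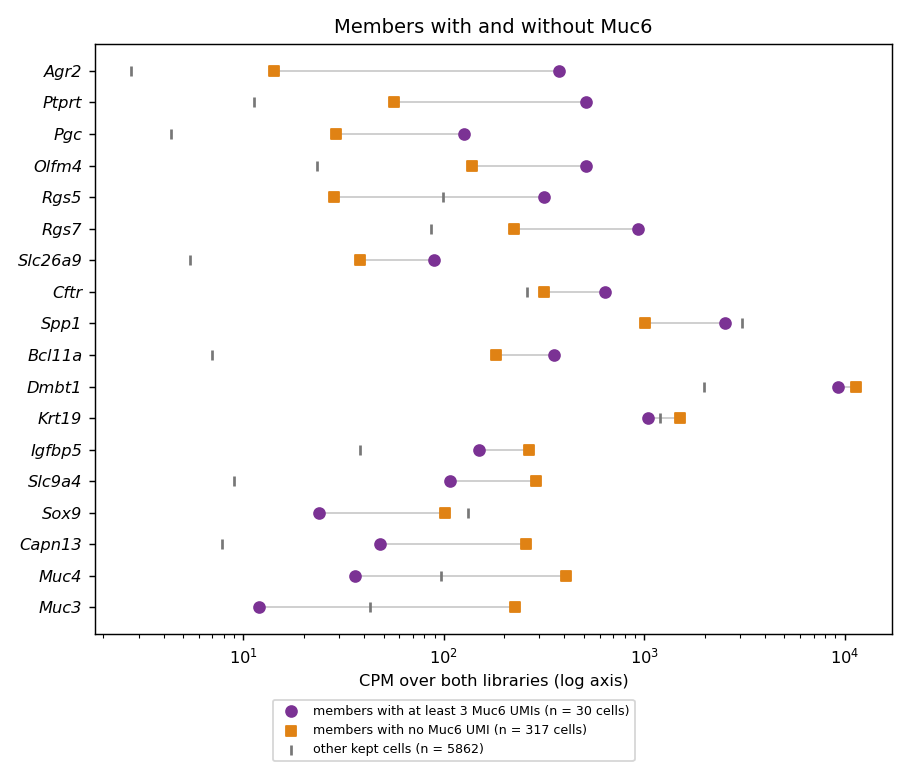
CPM over both libraries (log axis) in the 30 members with at least 3 Muc6 UMIs, the 317 members with none and the 5862 other kept cells. Agr2, Ptprt, Pgc and Olfm4 are higher and Muc3, Muc4, Capn13 and Sox9 lower in Muc6 members, while Dmbt1 is high in both.

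Between the libraries, few genes differed 2-fold within members. Of 3596 genes with at least 100 member UMIs, 34 (0.945%) were at least 2-fold higher and 69 (1.92%) at least 2-fold lower in Sox9cKO-labelled members. TMM factors gave 45 and 58, DESeq2 factors 45 and 55. The counts depended on single wells, with 22 higher without A12, 57 higher and 126 lower without D9, and 40 lower without D11. In thinned cells 342 genes were left, with 4 higher and 7 lower.

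The 10 genes with the highest ratio were Fn1, Mmp7, Col27a1, Kcnip4, Tnfaip2, Lcn2, C3, Cxcl2, Piezo1 and Camk1d. Fn1, the matrix protein fibronectin, had 110 CPM in Sox9cKO-labelled and 11.95 CPM in Sox9con-labelled members, a log2 ratio of 3.14 (2.33 to 4.19). Wells ran from 47.7 to 159 CPM and from 3.92 to 18.4 CPM and did not overlap. In other cells Fn1 was much higher, at 517 and 164 CPM, with a ratio of 1.66. C3, the complement component, had 470 and 128 CPM in members (1.87) and 1579 and 393 CPM in other cells (2.01). Lcn2, an antimicrobial iron-sequestering protein, had 106 and 24.9 CPM in members (2.06) and 409 and 205 CPM in other cells (0.999).

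For several of these the signal in members was no more frequent than in endothelial-marked cells. At 2000 UMIs per cell, C3 was seen in 35.98% and 18.8% of members and 35.3% and 19.4% of endothelial-marked cells. Lcn2 was seen in 10.98% and 2.62% against 14.7% and 6.48%, Tnfaip2 in 17.7% and 8.90% against 24.5% and 13.0%, Cxcl2 in 17.7% and 12.6% against 23.5% and 34.3%, and Fn1 in 10.98% and 2.62% against 25.5% and 13.9%. The unthinned shares of members were 51.2% and 36.1% for C3 and 20.7% and 5.15% for Fn1. Piezo1 was seen in 10.98% and 5.24% of members against 35.3% and 20.4% of endothelial-marked and 15.3% and 12.04% of other cells, so endothelial-marked cells are no background for it. These cells also carried Epcam, as given above, and the part of free RNA in the library ratios was not tested. Mmp7 (8.54% and 2.62% against 8.82% and 0.926%) and Kcnip4 (14.6% and 6.28% against 12.7% and 9.26%) lay close to the level of endothelial-marked cells. Camk1d lay above it, at 91.5% and 71.2% against 82.4% and 61.1%. Col27a1, a fibrillar collagen gene, was above that level in Sox9cKO-labelled members, at 22.0% against 8.82%, and not in Sox9con-labelled members, at 3.14% against 10.2%.

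Col27a1 had 126 CPM in Sox9cKO-labelled and 20.9 CPM in Sox9con-labelled members, a log2 ratio of 2.56 (1.91 to 3.33), while other cells had 44.6 and 39.5 CPM (0.17). Its wells did not overlap, at 67.1 to 186 CPM and 0 to 39.0 CPM. Kcnip4, a potassium channel interacting protein, had 291 and 58.7 CPM (2.30), with 267 and 178 CPM in other cells (0.58). Piezo1, a mechanosensitive channel, had 88.3 and 30.9 CPM (1.501), with 95.1 and 77.0 CPM in other cells (0.30). Mmp7, a matrix metalloprotease, had 99.5 and 15.9 CPM (2.60) but was at 0 in 1 Sox9cKO-labelled well and higher in 16 of 20 well pairs. In other cells Mmp7 had 107 and 23.9 CPM (2.16). Camk1d, a calcium-dependent kinase, had 3270 and 1161 CPM (1.49), which fell under 2-fold without well B2, at 0.71. In other cells Camk1d had 2047 and 633 CPM, and the ratio was larger than in members (1.69).

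The 10 lowest were Serpinb6b, Mt2, Tent5a, Hhex, the unnamed gene ENSMUSG00000095041, Dleu2, Ly6a, Ubb, Macrod2 and Mt1. All were lower in 20 of 20 well pairs except Macrod2 in 19. The metallothionein gene Mt2 had 37.6 CPM in Sox9cKO-labelled and 150 CPM in Sox9con-labelled members, a log2 ratio of -1.99 (-2.56 to -1.47). Its wells ran from 22.8 to 61.3 CPM and from 132 to 161 CPM and did not overlap. In other cells Mt2 had 117 and 164 CPM (-0.48), and Mt1 had -1.68 in members and -1.08 in other cells. Tent5a, a poly(A) polymerase, had 31.5 and 124 CPM (-1.97), against 26.4 and 39.5 CPM in other cells (-0.58).

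Hhex, a homeobox factor of liver and bile duct development, had 21.3 and 84.6 CPM in members (-1.96) and 32.9 and 79.6 CPM in other cells (-1.27). Of its 85 Sox9con-labelled UMIs, 34 were in the Muc6 cells, which were 24 in that library and 6 in the other. Serpinb6b, a serine protease inhibitor gene, had 21.3 and 86.6 CPM (-1.998), against 44.97 and 55.0 CPM in other cells (-0.29). Ly6a had -1.78 in members and -1.86 in other cells, and Ubb, a ubiquitin gene whose counts are uncertain because its family has near-identical repeats, -1.75 and -1.81. For these 2 genes the libraries differed about as much outside the members. The unnamed gene ENSMUSG00000095041 had -1.88 in members and -1.61 in other cells. Differences between members and other cells in these ratios were not tested. At 2000 UMIs per cell, Mt2 (4.88% and 23.04% of members against 18.6% and 26.9% of endothelial-marked cells), Mt1 (12.2% and 25.7% against 15.7% and 32.4%), Dleu2 (5.49% and 10.5% against 17.6% and 41.7%), Ubb (7.93% and 25.7% against 11.8% and 29.6%) and ENSMUSG00000095041 (5.49% and 17.3% against 16.7% and 28.7%) were less frequent in members than in endothelial-marked cells of both libraries. Dleu2 was seen in 11.2% and 14.7% of other cells, below its share in endothelial-marked cells, which are thus no background for it. Tent5a (7.93% and 13.6% against 4.90% and 7.41%), Hhex (4.88% and 11.5% against 1.96% and 7.41%) and Ly6a (8.54% and 21.5% against 6.86% and 6.48%) were more frequent in members than in endothelial-marked cells of both libraries. Serpinb6b was so in the Sox9con-labelled library, at 11.5% against 1.85%, and less frequent in the other, at 3.66% against 5.88%. Reads of Dleu2 can also come from genes that overlap it.

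Of the 20 genes that mark members most, Ctse was higher in Sox9cKO-labelled members in 20 of 20 well pairs (165 against 63.7 CPM, 1.37) and in other cells (1.63). Trim15 (-1.87), Olfm4 (-0.83) and Adgrg7 (-0.72) were lower in 20 of 20 pairs. In other cells their ratios were -1.18, -0.28 and -1.07, with Adgrg7 further apart than in members. Dmbt1 had -0.16 (-0.20 to -0.12) with 9 pairs higher and 11 lower, and turned to 0.13 without well D9. Igfbp5 had the same level in both. Muc6 was lower by log2 1.35 in Sox9cKO-labelled members, but its wells ran from 0 CPM in B3 to 699 CPM in B2 and from 525 to 1197 CPM, and 1 cell held 47.9% of the Sox9cKO-labelled UMIs. Agr2 and Pgc had 15 against 75 and 21 against 53 UMIs in members, log2 ratios of -2.26 and -1.29, and were lower in the Sox9cKO-labelled library in other cells too, with -0.99 and -1.52.

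**Figure D5:**
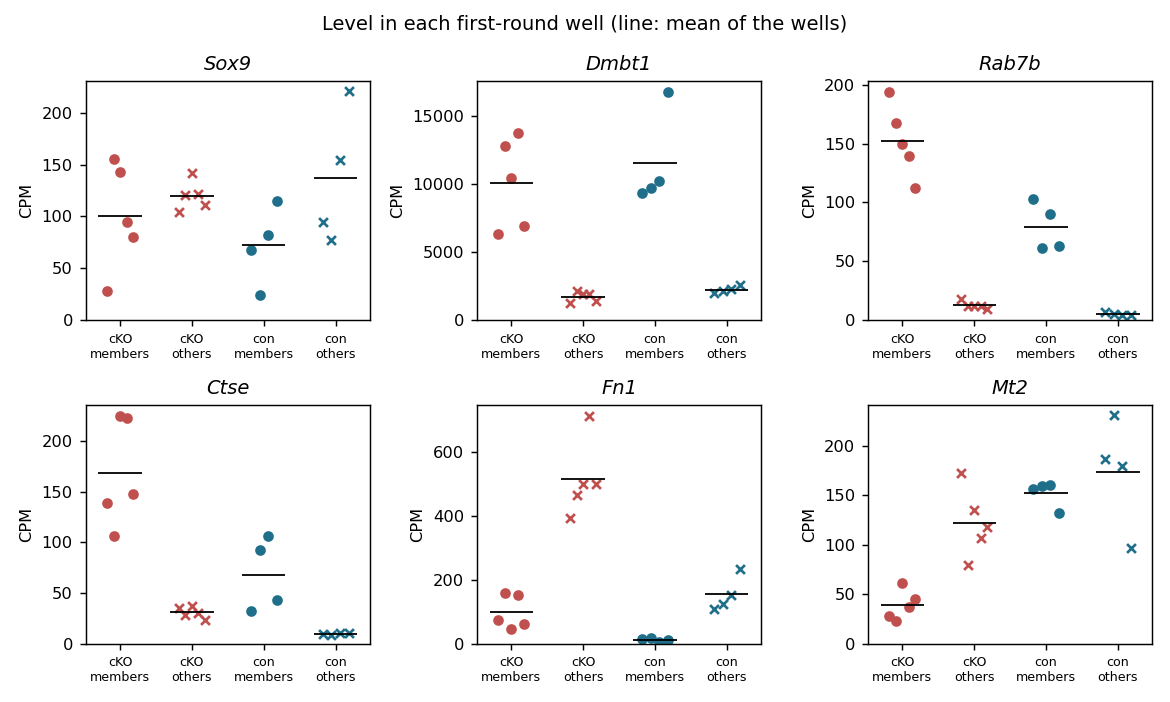
CPM of 6 genes in members (circles) and other kept cells (crosses) in each first-round well, with the mean of the wells (line); each y axis starts at 0. Member wells of the 2 libraries overlap for Sox9 and Dmbt1 and do not for Rab7b, Ctse, Fn1 and Mt2. Rab7b is a score gene, so its levels depend on the rule.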

How the data were processed

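Transcripts were measured in single fixed cells of 1 Sox9cKO-labelled and 1 Sox9con-labelled library. The deposited matrices hold whole-number UMI counts per cell and gene, made by the authors with the Evercode kit per the labels' protocols. The genome is mg39 per the file headers and GRCm39 per the submitters' processing notes, and the aligner is not given in the sources used here. The authors' signal column, a transcript estimate at a fixed duplication level, was deposited and not used. Deposited columns of another kind give well and gene names.

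Of 6362 cells, 6220 with at least 500 genes, 1000 UMIs and at most 15% mitochondrial UMIs were kept (27 and 115 removed), holding 14794895 and 12613570 UMIs. Scrublet called 12 cells (0.193%), too few to have worked, so no doublet was removed, and removal of the highest 5% of scores was an alternative. UMIs were summed per library, scaled to CPM, and compared as log2 ratios with 0.5 counts added. Intervals are exact at 95%. A count of 0 allows 3 counts. Replicate libraries were absent, so no p-value was computed. Named genes are the 20 highest and 10 lowest ratios of members over other cells, ranked by the weaker library, the 10 highest and 10 lowest ratios between libraries, the 6 score genes and genes named whatever their value. The script was tested on simulated data. Clusters used 2000 variable genes, 30 components, 15 neighbours and resolution 0.5 (scanpy 1.11.5, leidenalg 0.10.2). TMM factors (edgeR 4.0.16) and DESeq2 1.42.0 size factors were alternatives. The members and gene lists were chosen with earlier results of these data known.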

Additional observations from a re-analysis of the deposited data

Results flagged for a closer look

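In 6 results the 2 groups of cells or libraries moved in opposite directions, each beyond its counting interval, and in each case the difference was not tested. The collagen gene Col27a1 was higher in members than in other cells of the Sox9cKO-labelled library, with a log2 ratio of 1.49, and lower in members of the Sox9con-labelled library, with -0.92. Serpinb6b, a serine protease inhibitor gene, was lower in Sox9cKO-labelled members (-1.07) and higher in Sox9con-labelled members (0.65). Sox9 was higher in the Sox9cKO-labelled library within members (0.45) and lower in it within the other kept cells (-0.29). Slc26a9 was lower in Sox9cKO-labelled than in Sox9con-labelled members (-0.71) and higher in the other kept cells (0.65). Ly6m was higher in Sox9cKO-labelled members (0.61), and -0.12 without well A12, and lower in the other kept cells (-0.35). The endothelial receptor gene Flt1 was higher in Sox9cKO-labelled members (1.48), on 20 against 7 UMIs, and lower in the other kept cells (-0.75).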

How the results depend on the processing

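The share of members, the Sox9 ratios and the 4 counts of genes were recomputed under 30 settings, of which 202 values stayed close to the reported one, 37 moved and 1 reversed. For 319 single-gene and list values these numbers were 8662, 617 and 14. Close means within the interval of the reported value, or within a fixed fold of it for counts of genes. A reversal was counted only for ratios whose interval lay on 1 side of no difference. The order of the member shares was therefore not counted, though it was the opposite at the top 8% of the score, in thinned cells and without Rab7b. Each label has 1 library, and whether its wells held different animals is not given in the sources used here. The member share in the Sox9cKO-labelled and Sox9con-labelled library was 2.84% and 2.74% with at least 5 UMIs, 2.16% and 2.42% in thinned cells, 4.57% and 4.39% without Bcl11a in the score, 4.87% and 4.16% without Capn13, 4.39% and 3.91% without Slc9a4, and 4.75% without Rab7b (Sox9cKO-labelled) and 4.79% without Cela1 (Sox9con-labelled). Genes higher in Sox9cKO-labelled members numbered 20 at the top 8% of the score, 21 with at least 5 UMIs, 20 without Bcl11a, 52 without Capn13, 4 in thinned cells, and 74, 17 and 2514 with the gene minimum at 0.5 times, doubled and removed. Lower genes numbered 43 with at least 5 UMIs, 7 in thinned cells, and 147, 27 and 3352 with those gene minimums. Members against other cells gave 396 lower genes with the minimum doubled, and 440 higher and 6241 lower with none. Sox9 in other cells was -0.39 with the stricter cell filter, -0.10 thinned and -0.15 as a mean over cells. Leaving out each well gave 5.72% to 6.53% and 5.25% to 5.84% for the shares, 22 (without A12) to 57 (D9) higher and 40 (D11) to 126 (D9) lower genes between libraries, 129 to 145 higher and 513 to 603 lower genes against other cells, and Sox9 ratios of 0.19 to 0.77 in members and -0.45 (D10) to 0.11 (D9, reversed) in other cells. Reversed single genes between libraries were Krt7 (0.011 with at least 5 UMIs), Slc9a4 (0.24 thinned), Ly6m (-0.12 without A12, up to 0.79 without B2) and Dmbt1 (0.13 without D9, -0.30 without B2). Reversed against other cells in the Sox9con-labelled library were Mt1 (-0.0077 without Capn13), Serpinb6b (-0.96), Krt19 (-0.0004) and Galnt6 (-5.92) thinned, Cftr (-0.039 without the Muc6 members), and, with non-biliary cells removed, Tek (0.96) and Egfl7 (0.0045). In the Sox9cKO-labelled library that removal reversed Kdr (1.34), Tek (0.0060) and Ptprb (0.48). The cause was not tested. No paired analysis was possible because each label has 1 library and no result comes from a test. The settings that leave out the Muc6 members or the member rich in pancreatic enzymes were chosen after seeing the data.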
